A study of Mus musculus with 4 samples.

Results

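The BCL2 family comprises the genes that set whether a cell survives or starts to die through its mitochondria, and 10 of its members were followed here among the 32285 genes counted in single cells of mouse bone and marrow. Members were chosen by gene symbol alone, and all 10 were found as 1 row each in both matrices. They were 5 survival genes (Bcl2, Bcl2l1, Bcl2l2, Mcl1 and Bcl2a1b), 2 pore-forming effectors (Bax and Bak1) and 3 BH3-only genes (Bcl2l11, Bbc3 and Pmaip1). The cells came from femurs and tibiae of 1 young (6 months) and 1 old (24 months) INK-ATTAC mouse, and neither animal had been treated. Both mice therefore carried the INK-ATTAC transgene, in which part of the p16 promoter drives a caspase 8 that can be switched on by a drug. Marrow and bone digests were pooled, depleted of cells with blood lineage markers, stained with an oligonucleotide-tagged CD24 antibody and sorted for live CD45− cells, and the gate therefore set the share of blood cells. The paper's methods give no number of animals for these libraries, and each library is counted here as 1 mouse. For mice used in single-cell sequencing those methods give an age range that starts at 24 months. With 1 mouse per age, an age difference cannot be told apart from a difference between animals or libraries.

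In the BCL2 family, survival proteins such as BCL2, BCL-XL (Bcl2l1), BCL-W (Bcl2l2), MCL1 and A1 (Bcl2a1b) bind and restrain their partners at the outer mitochondrial membrane. BH3-only proteins such as BIM (Bcl2l11), PUMA (Bbc3) and NOXA (Pmaip1) occupy the survival proteins, after which BAX and BAK1 can open the membrane, release cytochrome c and start the caspase cascade. Cells that persist after damage, senescent cells among them, are known to lean on survival members, and this dependence is the target of BCL2 family inhibitors used as senolytic drugs. In bone and marrow, granulocytes are known to need MCL1, red cell precursors and platelets to need BCL-XL, and lymphocytes to be set by the balance of BCL2 and BIM. These statements describe proteins, whereas the values below are messenger RNA counts.

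The DNA just upstream of 3 members is shown because their messenger RNA had sharp limits by cell class: Bcl2 was nearly absent from erythroid-like cells, Mcl1 was high in neutrophil-like cells, and Bcl2a1b was almost limited to them. Each window holds the 250 bases before the RefSeq transcription start (build GRCm38.p6, which is mm10), read 5′ to 3′ on the gene's strand, and 9 of the 10 members had an entry. The windows are chr1:106714291-106714540 on the minus strand for Bcl2, chr3:95658471-95658720 on the plus strand for Mcl1 and chr9:89199023-89199272 on the plus strand for Bcl2a1b. Capitals mark matches on either strand to GAGGAAGT or CCGGAAG, 2 forms of the ETS core, TGACGT, a cyclic AMP response half-site, or CACGTG, an E-box.
Bcl2: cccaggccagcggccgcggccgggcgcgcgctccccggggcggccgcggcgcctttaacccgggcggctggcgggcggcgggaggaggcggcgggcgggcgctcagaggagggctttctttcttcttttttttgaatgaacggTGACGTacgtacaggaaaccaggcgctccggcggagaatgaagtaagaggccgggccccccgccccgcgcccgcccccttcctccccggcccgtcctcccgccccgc
Mcl1: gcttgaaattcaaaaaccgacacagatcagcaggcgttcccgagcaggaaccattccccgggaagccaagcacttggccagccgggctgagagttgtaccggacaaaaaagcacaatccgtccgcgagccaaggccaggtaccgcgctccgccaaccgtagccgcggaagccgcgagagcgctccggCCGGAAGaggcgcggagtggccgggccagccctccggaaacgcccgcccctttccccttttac
Bcl2a1b: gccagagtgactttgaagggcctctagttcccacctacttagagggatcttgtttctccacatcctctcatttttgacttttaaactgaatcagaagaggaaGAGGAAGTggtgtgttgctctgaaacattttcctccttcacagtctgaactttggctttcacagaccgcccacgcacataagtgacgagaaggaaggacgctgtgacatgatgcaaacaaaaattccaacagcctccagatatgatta
Among all 32851 windows of the same length, GAGGAAGT was found in 2.44%, CCGGAAG in 6.91%, TGACGT in 6.47% and CACGTG in 6.02%. GAGGAAGT was also present before Bak1, CCGGAAG before 1 of the 2 starts of Bcl2l11, and CACGTG before Bax and 1 of the 3 starts of Bbc3. GAGGAAGT and CCGGAAG share the letters GGAAG. The GC box GGGCGG, not in capitals, was found in 32.7% of all windows, with 7 matches before Bcl2 and 1 each before Mcl1 and Bcl2a1b. Such matches describe the windows and are not shown to be bound.

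The young library held 10063 kept cells with 81076421 unique molecular identifiers (UMIs, each standing for 1 captured molecule), and the old library held 5607 kept cells with 66702846. Median depth was 6385 UMIs in young and 9711 in old cells, so shares of cells with a UMI rise with depth and levels are given as CPM, counts per 1000000 UMIs of the same cells. Libraries shared 19 cell barcodes. Cells were assigned to classes by UMIs of 6 marker genes per class, none of them a member, and 11 classes had at least 30 cells in each library. The names say only which markers the cells carried. The 6 mesenchymal classes were stromal-, osteoblast-, chondrocyte-, fibroblast-, tendon- and pericyte-like, and the 5 blood classes were erythroid-, B-lineage-, neutrophil-, megakaryocyte- and progenitor-like. In each class all 6 markers were found in both mice, and its top 10 genes held at least 2 of its own markers and 0 of another list. Cells were assigned by these markers, so this describes the classes and cannot check them. Osteoblast markers also summed to 6973 and 4469 CPM in young and old stromal-like cells, and to 4846 and 5076 in chondrocyte-like cells. Erythroid markers summed to 412 and 424 CPM in progenitor-like cells, against 1013 and 1005 for that class's own list. No cell passed as endothelial-like. Blood-like cells were present despite the CD45− gate, and 177 young and 128 old cells that passed for both a blood and a non-blood list were in no class and enter only the totals over all kept cells.

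For 7 of the 10 members the rank order of the 11 classes was much alike in both mice (Spearman 0.87 to 0.99), while it was 0.47 for Bax, 0.76 for Bcl2a1b and 0.093 for Pmaip1, whose counts were low. Each class of each mouse gave 1 sum of UMIs, and every class was tested against the unweighted mean of the other classes in edgeR (quasi-likelihood F test, mouse as block), with 22 sums in all and adjustment over 14066 genes. Class differences are given on the log2 scale with the standard error (SE) of that fit, which takes 1 spread per gene over all classes. They are fitted after TMM scaling, while CPM are unscaled. A gene with 0 UMIs of a class in both mice has no defined fit there. This held for 4605 of the genes (32.7%) and for 1 member, Bcl2a1b, so levels are given for it in place of fitted folds. Called members numbered 6 of 10 in stromal-like cells, where 55.4% of all genes were called, 3 in osteoblast-like cells (45.3%), 4 in chondrocyte-like cells (33.2%), 3 in fibroblast-like cells (48.6%), 3 in tendon-like cells (43.8%) and 1 in pericyte-like cells (26.6%). In blood classes they numbered 7 for the erythroid-like class (57.4%), 8 for the B-lineage-like (43.7%), and 6 each for the neutrophil-like (41.8%), megakaryocyte-like (45.8%) and progenitor-like class (54.0%). Most of these counts were near the background, so the results below are about which member was high where, not about how many differed. The median difference over all tested genes ran from -0.65 in megakaryocyte-like to 0.36 in stromal-like cells, and was -0.42 in neutrophil-like cells. Among genes found in every class the background ran from 26.3% to 75.5%.

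**Figure D1:**
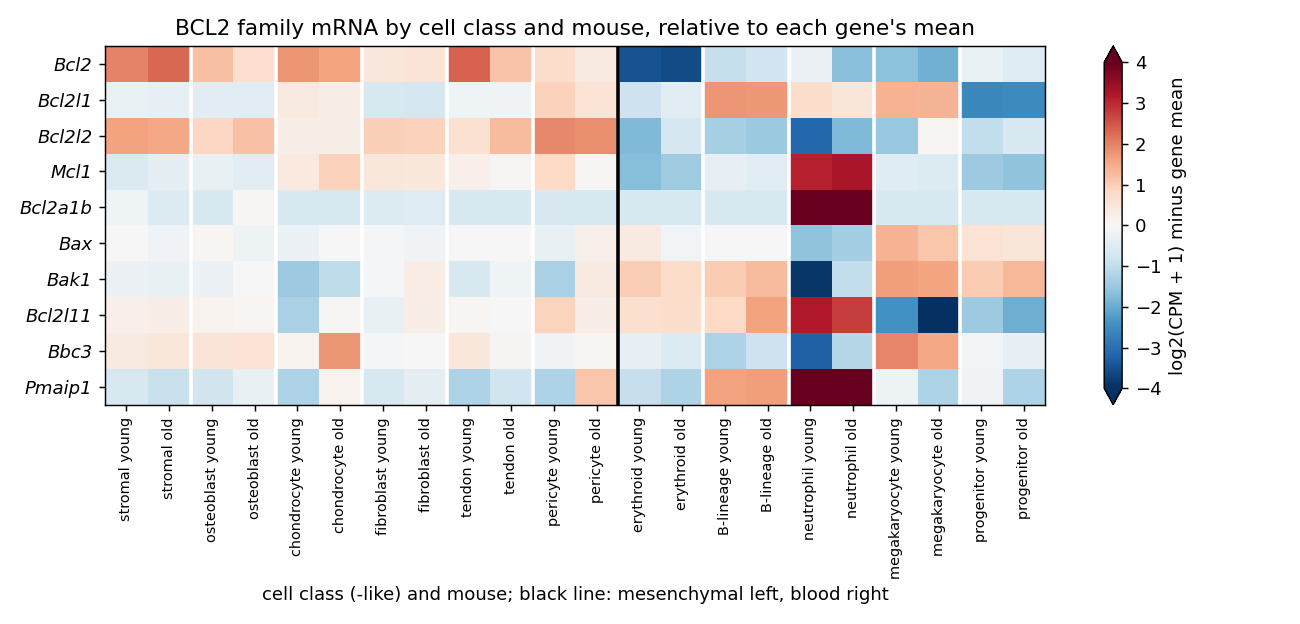
Levels of the 10 members (rows) in each class and mouse (columns), as log2(CPM + 1) minus the mean of that gene over the 22 columns, so colours compare within a row only and values beyond 4 are drawn at 4. Both mice show the same highs in the neutrophil-like columns for Mcl1, Bcl2a1b, Bcl2l11 and Pmaip1 and the same low of Bcl2 in the erythroid-like columns.

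Bcl2, the founding survival gene, was a mesenchymal transcript in these cells. Its level was 63.4 and 78.2 CPM in stromal-like cells of the young and old mouse, 82.1 and 34.9 in tendon-like cells, 53.9 and 47.1 in chondrocyte-like cells and 36.8 and 24.9 in osteoblast-like cells. It was 21.2 and 22.1 in fibroblast-like and 25.2 and 20.0 in pericyte-like cells. The stromal-, tendon- and chondrocyte-like ranges overlapped their neighbours in that order, and the chondrocyte-like range lay clear of the osteoblast-like one. Against the mean of the other classes, Bcl2 was higher by 2.32 (SE 0.18, edgeR adjusted p = 1.5e-09) in stromal-like cells, by 2.14 (SE 0.27) in chondrocyte-like cells and by 2.13 (SE 0.20) in tendon-like cells. In osteoblast-like cells it was higher by 1.20 (SE 0.20, edgeR adjusted p = 6.12e-05) and in fibroblast-like cells by 0.64 (SE 0.20, edgeR adjusted p = 0.0141), while pericyte-like cells did not pass. The mean of the other classes includes the erythroid-like sums, which were near 0. Pooled by UMIs instead, stromal-like cells held 3.16-fold (2.99 to 3.35) the level of all other tested classes, tendon-like cells 1.70-fold (1.52 to 1.89) and chondrocyte-like cells 1.44-fold (1.17 to 1.75). Osteoblast-like cells then held 0.832-fold (0.763 to 0.905) and fibroblast-like cells 0.512-fold (0.475 to 0.553), so the direction of those 2 differences turns with the weight given to each class.

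Blood classes lay between 0.36 and 12.7 CPM of Bcl2, below every mesenchymal sum, the lowest of which was 20.0. Erythroid-like cells held 2 UMIs in each mouse, 0.46 and 0.36 CPM, against 37.8 and 40.7 in the other classes pooled. The ratio was 0.0123 (0.00148 to 0.0443) in the young and 0.00884 (0.00107 to 0.0320) in the old mouse. A Bcl2 UMI was found in 28.5% of young and 43.1% of old stromal-like cells at median depths of 5428 and 8511 UMIs, and in 0.37% and 0.67% of erythroid-like cells that were deeper, at 11357.5 and 14577 UMIs. Progenitor-like cells held 12.4 and 10.4 CPM, B-lineage-like cells 7.62 and 8.57. The level was 4.18 and 3.29 in the megakaryocyte-like class. Neutrophil-like cells held 12.7 and 4.06 on 5 UMIs in each mouse, and were not called (-0.14, SE 0.59, edgeR adjusted p = 0.995). Over the mesenchymal classes against the blood classes, Bcl2 was higher by 3.00 (SE 0.21, edgeR adjusted p = 2.55e-10). In that contrast 5 of 10 members were called and 64.9% of all genes were.

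**Figure D2:**
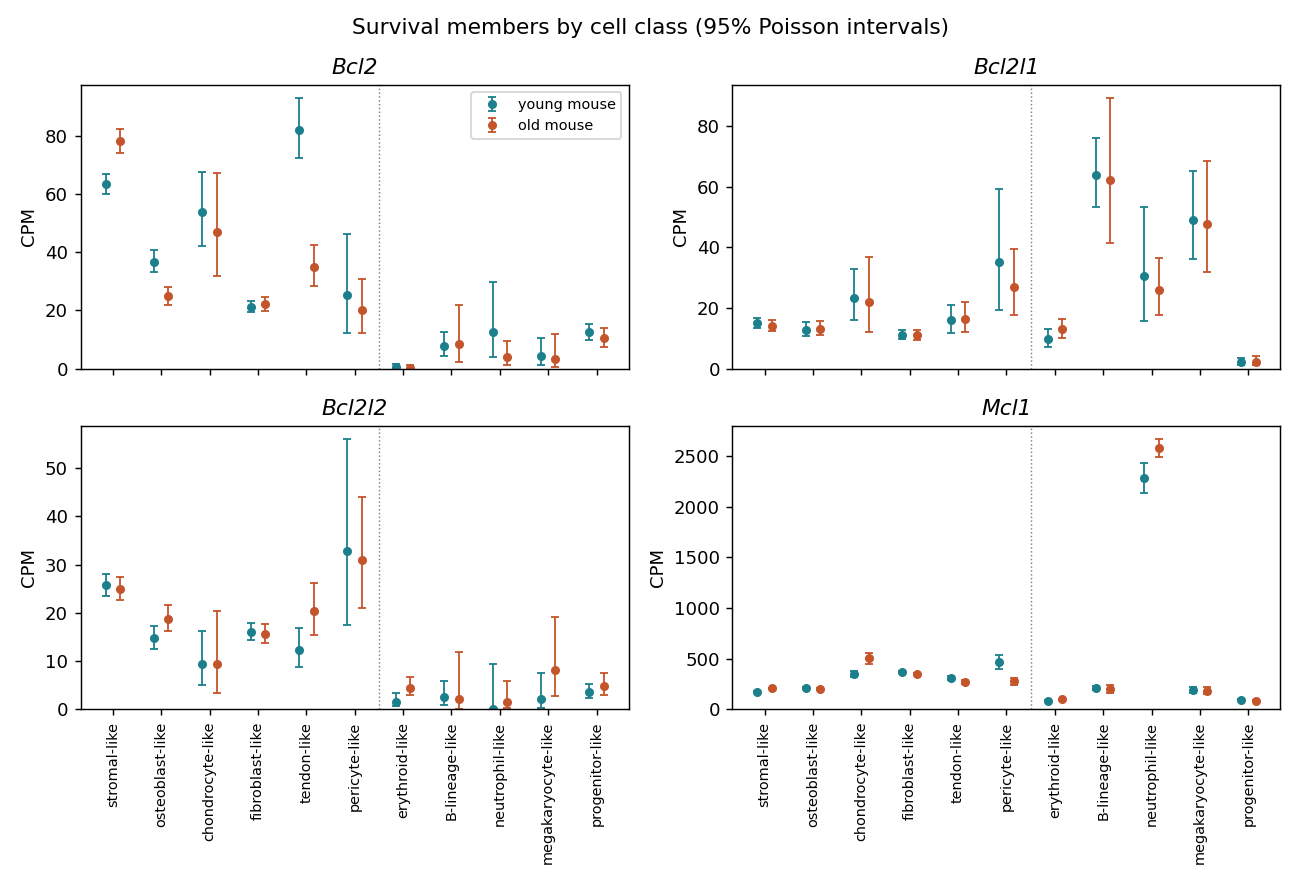
CPM of Bcl2, Bcl2l1, Bcl2l2 and Mcl1 (vertical axes, starting at 0) in the 11 classes, with the young and old mouse as separate points and 95% Poisson intervals that cover counting error only; the dotted line separates mesenchymal from blood classes. Bcl2 and Bcl2l2 are low right of the line, Bcl2l1 is highest in B-lineage- and megakaryocyte-like cells, and Mcl1 reaches 2279 and 2577 in neutrophil-like cells.

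Bcl2l2, which encodes BCL-W, was likewise a mesenchymal transcript. It was 32.8 and 31.1 CPM in pericyte-like cells and 25.7 and 25.0 in stromal-like cells, against 14.7 and 18.8 in osteoblast-like cells. Blood classes lay between 0 and 8.24 CPM, below every mesenchymal sum, the lowest of which was 9.42. The mesenchymal against blood difference was 2.36 (SE 0.24, edgeR adjusted p = 3.51e-08). Within mesenchymal classes Bcl2l2 was called in stromal- (1.56, SE 0.19), pericyte- (1.94, SE 0.34), osteoblast- (1.13, SE 0.21), fibroblast- (1.03, SE 0.20) and tendon-like cells (1.00, SE 0.26), all higher. With the other classes pooled by UMIs instead, the ratio was 1.03 (0.915 to 1.16) in osteoblast-like, 0.965 (0.876 to 1.06) in fibroblast-like and 0.988 (0.796 to 1.21) in tendon-like cells, so those 3 differences depend on giving each class equal weight. In tendon-like cells the call was also lost when at least 4 markers were required (edgeR adjusted p = 0.0585), and in pericyte-like cells after thinning to 2000 UMIs (edgeR adjusted p = 0.337).

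Bcl2l1, which encodes BCL-XL, ran against that order. Its level was 64.0 and 62.1 CPM in B-lineage-like cells. Next came megakaryocyte-like cells with 49.1 and 47.8 CPM, whose platelets are known to depend on BCL-XL. It was lowest in progenitor-like cells, at 2.24 and 2.28. The rank order of classes agreed closely between mice (Spearman 0.99 over 11 classes, which share no cells but share a library within each mouse). Bcl2l1 was higher by 1.68 (SE 0.16, edgeR adjusted p = 4.77e-08) in B-lineage-like, by 1.69 (SE 0.19, edgeR adjusted p = 4.93e-07) in megakaryocyte-like and by 1.71 (SE 0.23, edgeR adjusted p = 4.98e-06) in neutrophil-like cells. The level in neutrophil-like cells was only 30.5 (young) and 26.0 CPM (old), on 12 and 32 UMIs. That is below both other classes, although the fitted differences after TMM scaling were alike. Bcl2l1 was lower in progenitor-like cells, with a log2 difference of -3.31 (SE 0.22, edgeR adjusted p = 2.35e-10). Red cell precursors are also known to need BCL-XL, but Bcl2l1 was low in erythroid-like cells, at 9.72 (young) and 12.96 CPM (old). The log2 difference there was -0.496 (SE 0.16, edgeR adjusted p = 0.0117), a call that was lost after thinning to 2000 UMIs (edgeR adjusted p = 0.278). Mesenchymal classes lay between 11.0 and 35.3 CPM, with fibroblast-like cells lowest. The lower call in stromal-like cells (-0.63, SE 0.13) also turns with the weighting, since the ratio to the other classes pooled was 1.07 (0.964 to 1.18), and in osteoblast-like cells (-0.57, SE 0.14) the pooled ratio was 0.927 (0.810 to 1.06).

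Mcl1, the short-lived survival protein on which granulocytes depend, was highest in neutrophil-like cells, at 2279 CPM in the young mouse (897 UMIs) and 2577 in the old mouse (3176 UMIs). Every other sum lay between 81.0 and 502. Neutrophil-like cells held 9.55-fold (8.92 to 10.2) and 11.1-fold (10.7 to 11.5) the level of the other classes pooled, by mouse, and the fitted difference was 4.47 (SE 0.15, edgeR adjusted p = 3.08e-15). An Mcl1 UMI was found in 94.7% and 99.1% of neutrophil-like cells although they were shallow, with medians of 2668 and 4205.5 UMIs. Erythroid- and progenitor-like cells were the lowest, at 81.0 and 97.9 and at 95.5 and 87.0 CPM, with differences of -1.54 (SE 0.24) and -1.76 (SE 0.24). In chondrocyte-like cells Mcl1 was higher by 0.81 (SE 0.20, edgeR adjusted p = 0.00314).

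Bcl2a1b, which encodes a form of the survival protein A1, was nearly limited to 1 of the 11 classes. Of its UMIs, 23 fell in young and 98 in old neutrophil-like cells, 58.4 and 79.5 CPM, against 8 UMIs in each mouse over the other 10 classes summed. A further 45 young and 89 old UMIs were in cells of no class and 11 and 34 in cells with mixed markers. Neutrophil-like cells thus held 605-fold (358 to 1092) the level of the others pooled. Bcl2a1b passed the low-count filter only through its neutrophil-like sums, so its edgeR call there (adjusted p = 9.88e-09) adds no support to these levels. DESeq2 did not call it (adjusted p = 0.0927). The count of called members in neutrophil-like cells includes it. A UMI was found in 8.85% of young and 19.0% of old neutrophil-like cells, against 0.039% and 0.087% of the deeper fibroblast-like cells. The near-identical copies Bcl2a1a and Bcl2a1d had 0 to 7 UMIs in neutrophil-like cells, and reads that match more than 1 copy can be split or lost, so the 3 copies are not separated with certainty.

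Among the effectors and BH3-only genes, megakaryocyte-like cells stood out. Bax was 251 and 209 CPM there, against 30.5 to 143 elsewhere. Bak1 was 45.9 and 42.8, and Bbc3, which encodes PUMA, was 35.5 and 26.4. All 3 were higher than the mean of the other classes, by 1.46 (SE 0.14, edgeR adjusted p = 7.08e-08), 1.82 (SE 0.26, edgeR adjusted p = 1.2e-05) and 2.14 (SE 0.33, edgeR adjusted p = 3.08e-05). Over both mice they were 2.45-fold (2.20 to 2.71), 2.88-fold (2.23 to 3.65) and 3.29-fold (2.43 to 4.37) the other classes. Bbc3 in megakaryocyte-like cells rested on 34 and 16 UMIs in 65 and 41 cells. After thinning to 2000 UMIs Bak1 (1.71, edgeR adjusted p = 0.0647) and Bbc3 (1.32, edgeR adjusted p = 0.331) no longer passed.

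Bak1 was also higher in the other blood classes except neutrophil-like cells. It was 29.1 and 36.4 CPM in progenitor-like cells, 29.0 and 34.3 in B-lineage-like cells and 28.2 and 23.8 in erythroid-like cells, whereas mesenchymal classes lay between 4.37 and 18.0. The ranges of the mesenchymal sums and of those 3 classes did not overlap. The mesenchymal against blood difference was -1.35 (SE 0.21, edgeR adjusted p = 1.3e-05), and with each mouse alone and a prior count of 2 it was -0.68 (young) and -1.22 (old). Bax was also lower in mesenchymal than in blood classes, by a log2 difference of -0.44 (SE 0.09, edgeR adjusted p = 0.000312), and Bcl2l1 by -0.42 (SE 0.11, edgeR adjusted p = 0.0019). The call for Bcl2l1 was lost without the low-count filter (-0.32, edgeR adjusted p = 0.0613) and after thinning (-0.027, edgeR adjusted p = 1). Over mesenchymal against blood classes the 10 members had a median of -0.30 and all genes tested a median of 0.42.

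**Figure D3:**
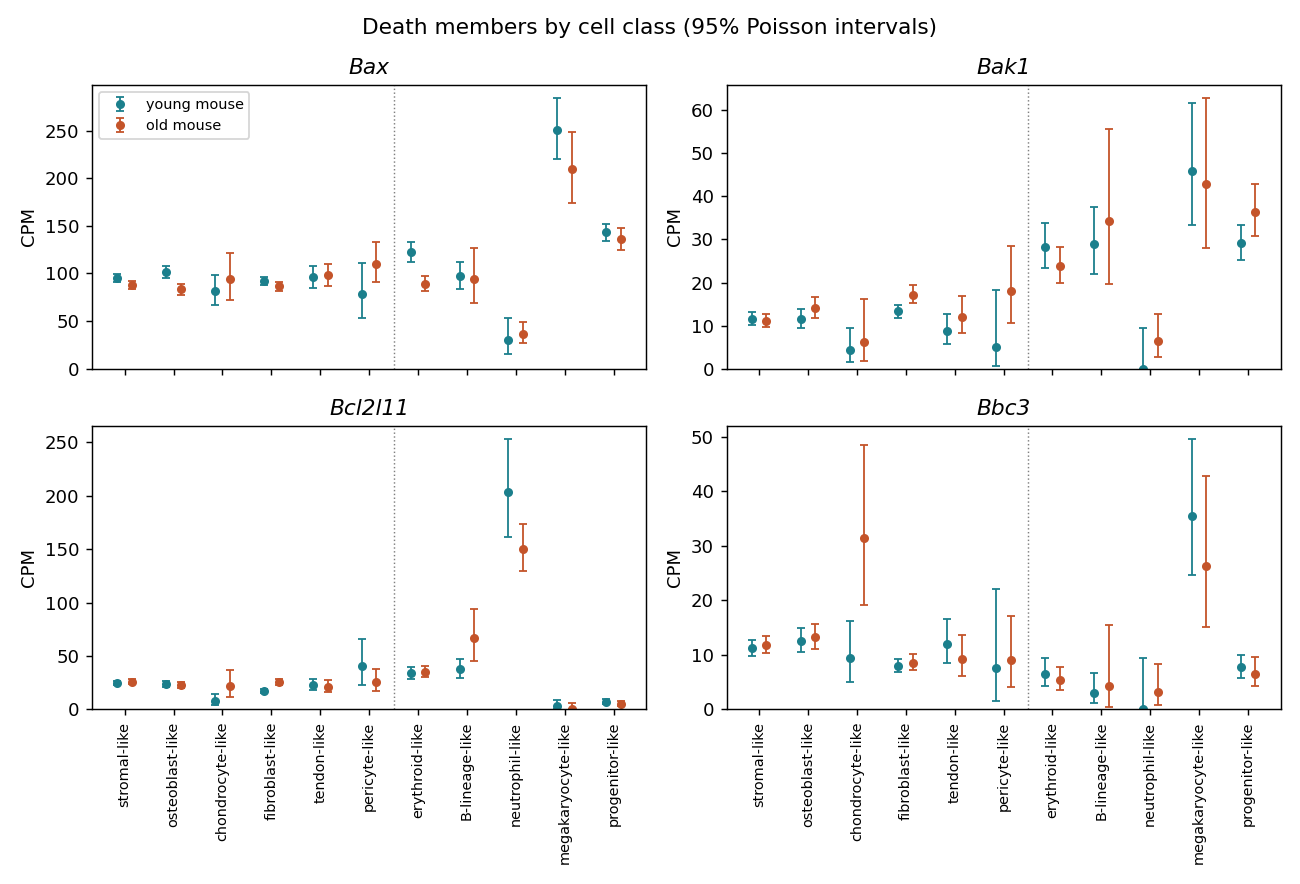
CPM of Bax, Bak1, Bcl2l11 and Bbc3 in the 11 classes, drawn as for the survival members. Bax, Bak1 and Bbc3 are high in both mice in megakaryocyte-like cells, where Bcl2l11 is at 3.13 and 0, and Bcl2l11 reaches 203 and 150 in neutrophil-like cells.

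Bcl2l11, which encodes the BH3-only protein BIM, was highest in neutrophil-like cells. It was 203 CPM in young and 150 in old neutrophil-like cells, higher by 4.27 (SE 0.21, edgeR adjusted p = 1.44e-12) than the mean of the other classes, and 9.82-fold (7.74 to 12.3) and 6.14-fold (5.24 to 7.16) the other classes pooled. B-lineage-like cells (37.6 and 66.4) and erythroid-like cells (34.0 and 35.1) were higher too, by 0.92 (SE 0.27, edgeR adjusted p = 0.00851) and 0.97 (SE 0.21, edgeR adjusted p = 0.000391). In megakaryocyte-like cells only 3 young and 0 old UMIs were counted. The young count gives 0.143-fold (0.029 to 0.418) the other classes pooled, and with a floor of 3 counts in that library the old level was at least 5.53-fold lower. Progenitor-like cells held 7.13 and 4.81, 0.306-fold (0.227 to 0.405) and 0.168-fold (0.101 to 0.263) the other classes pooled.

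Bbc3 and Pmaip1, both known as targets of p53, were low in most classes. Bbc3 was called higher in chondrocyte-like cells as well (1.16, SE 0.37, edgeR adjusted p = 0.0216), where it was 9.47 CPM (young) and 31.4 CPM (old), on 13 and 20 UMIs. That call was lost when at least 4 markers were required (0.95, edgeR adjusted p = 0.113) and after thinning (edgeR adjusted p = 0.264). B-lineage-like cells held 3.05 and 4.29. Pmaip1 was 43.2 and 45.4 CPM in neutrophil-like cells (17 and 56 UMIs), 71.2-fold (51.2 to 98.8) the other classes pooled (edgeR adjusted p = 2.88e-10). It was 6.1 and 6.43 in B-lineage-like cells (12 and 3 UMIs). Thus Mcl1, Bcl2a1b, Bcl2l11, Bcl2l1 and Pmaip1 were all higher in neutrophil-like cells, while Bax was lower there, at 30.5 and 36.5 CPM (-0.60, SE 0.22, edgeR adjusted p = 0.0321). The call for Bax was lost with RLE size factors (-0.42, edgeR adjusted p = 0.108) and with DESeq2 (-0.40, adjusted p = 0.134).

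Other apoptosis genes came from a list of 31, of which 25 were tested across classes. In neutrophil-like cells 14 were called, 10 higher and 4 lower, where 41.8% of all genes were called. There Birc3, an inhibitor of apoptosis, was higher by 4.62 (SE 0.19) and Fas, a death receptor, by 4.97 (SE 0.24). Bid, which links death receptors to mitochondria, was higher by 2.62 (SE 0.35). In mesenchymal against blood classes 21 were called, 10 higher and 11 lower, where 64.9% of all genes were called. Bok, a relative of Bax and Bak1, was called higher in mesenchymal classes, at 10.1 to 46.5 CPM there and 0 to 10.7 in blood classes. Bnip3, a mitophagy receptor, was higher by 2.18 (SE 0.14). Bid was lower, by a log2 difference of -2.83 (SE 0.19).

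For 8 members with at least 500 UMIs in each library, the genes with the most similar level over the 22 sums were found among 9031 genes. They share libraries and classes, so the values are descriptions only. Dusp7, Smarca2 and Zbtb20 followed Bcl2 (Pearson r 0.93, 0.92 and 0.92), Plk3, Ets2 and Ndel1 followed Mcl1 (0.96, 0.95 and 0.93), and Phf20l1, Ulk1 and Lcor followed Bcl2l11 (0.94, 0.92 and 0.91). Coa3, Zswim7 and Spag7 followed Bax (0.97, 0.96 and 0.96), Mrpl32, Eipr1 and Ghitm followed Bak1 (0.93, 0.92 and 0.92), and Armcx2, Aldh6a1 and Ctnna1 followed Bcl2l2 (0.93, 0.92 and 0.92). For Bcl2l1 these included Ppp1r18 and Tmem134 (0.82 and 0.81), and for Bbc3 they were Borcs7, Ost4 and Plekha8 (0.88, 0.87 and 0.86).

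The study asked whether CD24 protein marks senescent skeletal cells, and no member was shown to differ by CD24 protein within mesenchymal-like cells. There were 597 young and 201 old CD24+ cells, against 7120 and 4016 CD24− cells. Bcl2 was 44.2 and 42.5 CPM in young CD24+ and CD24− cells, and 32.8 and 45.8 in old ones, so the mice went in opposite directions. Bcl2l1 was 14.6 and 13.4 in the young and 13.9 and 13.4 in the old mouse. Of 9 members tested, 0 were called by edgeR and 0 had an unadjusted p under 0.05, where 14.0% of 15137 genes were called, and DESeq2 called 0 as well. On the log2 scale the fitted intervals were -0.34 to 0.19 for Bcl2, -0.14 to 0.52 for Bcl2l1, -0.12 to 0.20 for Mcl1 and -0.05 to 0.35 for Bax. They rest on 1 mouse per age and a spread borrowed largely from other genes, so they do not bound differences between animals. For Bcl2 the old mouse alone was at -0.36, outside the fitted interval, and the young mouse at 0.13. Of the other apoptosis genes, 26 were tested and 5 were called, among them Birc5, which is made in dividing cells (1.67, SE 0.29), and Bok (0.42, SE 0.12).

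CD24+ cells were also a different mix of classes. Osteoblast-like cells made up 44.6% and 48.3% of CD24+ but 13.7% and 13.9% of CD24− mesenchymal-like cells in the young and old mouse, and CD24+ cells were deeper, with 9295 against 6259 and 13845 against 9929.5 UMIs at the median. The part of this mix in the values was not tested except by sums per class with class as a term, where 0 of 8 members were called. Within osteoblast-like cells alone, 0 of 8 members were called, 0 had an unadjusted p under 0.05, DESeq2 called 0, and 2.34% of 12050 genes were called. There Bcl2 was 36.2 and 37.0 in young CD24+ and CD24− cells and 28.6 and 24.2 in old ones, with a difference of 0.09 (-0.24 to 0.42).

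**Figure D4:**
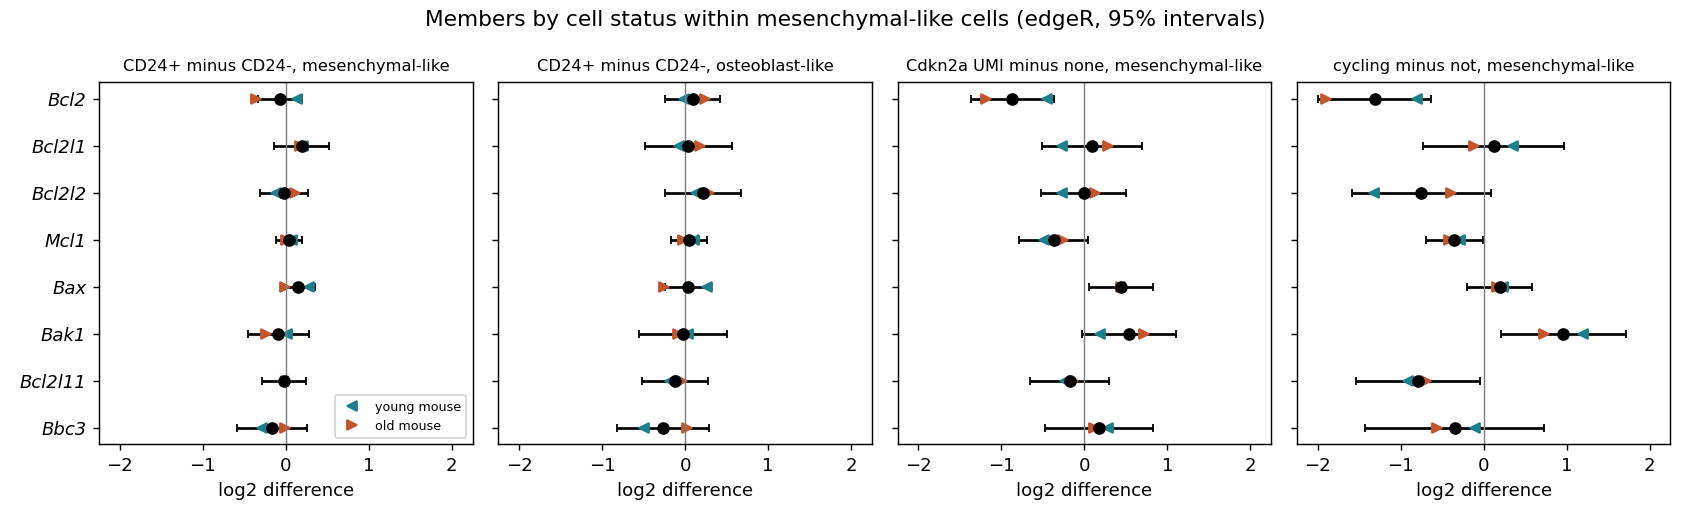
Fitted log2 differences of 8 members (black points with 95% intervals) by CD24 status, by a Cdkn2a UMI and by cycling markers, with triangles for the difference within each mouse. Intervals for the CD24 panels cross 0 for every member drawn, while Bcl2 lies left of 0 in both mice in the Cdkn2a and cycling panels.

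Cells with a UMI of Cdkn2a were rare, 74 from the young and 143 from the old mouse. Cdkn2a encodes the senescence marker p16 but also p19Arf. The paper describes its transcripts as hard to separate in standard single-cell libraries, so a Cdkn2a UMI does not by itself show p16. Bcl2 was 31.4 CPM in young cells with a Cdkn2a UMI and 42.9 in those without, and 19.0 against 46.7 in the old mouse. It was thus lower in both mice, by a log2 difference of -0.87 (SE 0.23), and did not pass after adjustment (edgeR adjusted p = 0.0652, with 3.95% of 14960 genes called). Of 9 members 0 were called by edgeR and 0 by DESeq2, and 2 had an unadjusted p under 0.05, Bcl2 and Bax (0.44, SE 0.17, edgeR adjusted p = 0.256). Removing predicted doublets or the low-count filter made Bcl2 pass, at -0.86 (edgeR adjusted p = 0.00853) and -0.89 (edgeR adjusted p = 0.0016), and over all alternatives its adjusted p ran from 0.0016 to 0.407. Cells with a Cdkn2a UMI were deeper (10039.5 against 6428 UMIs in the young and 17531 against 9917 in the old mouse), and 48.6% and 35.0% of them were osteoblast-like against 15.8% and 14.8% of the others. Birc5 was higher in them by 3.88 (SE 0.29, edgeR adjusted p = 6.9e-05) and Bok by 1.05 (SE 0.21). Without cells that carried any cycling marker Bcl2 was at -0.74 (edgeR adjusted p = 0.0922), and with class as a term at -0.65 (edgeR adjusted p = 0.386).

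Cycling mesenchymal-like cells, with UMIs of at least 3 of 6 cycling markers, were few, 32 young and 31 old. They were set against the 7121 young and 3658 old cells with none of these markers. Cells with some but fewer than 3 markers were left out. Bcl2 was 24.2 CPM in young cycling cells and 43.2 in young cells without these markers (13 UMIs in cycling cells). In the old mouse Bcl2 was 12.6 against 46.0 (8 UMIs). Bcl2 was lower by a log2 difference of -1.31 (SE 0.32, edgeR adjusted p = 0.0109), the single member called of 9, where 13.8% of 14664 genes were called. The call was lost with DESeq2 (-1.28, adjusted p = 0.13). Cycling cells were 53.1% and 35.5% osteoblast-like against 15.8% and 14.8% of the cells without these markers. The median depth of cycling cells was 15025.5 and 17581 UMIs. Bak1 was 26.0 against 11.6 and 22.0 against 12.9 CPM, a difference of 0.96 (SE 0.35) that did not pass (edgeR adjusted p = 0.0899). Of the other apoptosis genes 26 were tested and 7 called, 5 higher and 2 lower, including Birc5 (7.89, SE 0.22) and Cycs, cytochrome c (1.06, SE 0.17).

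Between ages there was 1 mouse per group and no test, so ratios are given with exact intervals that cover counting error only, and a ratio counts as past the fold at 1.5 either way with at least 20 UMIs in the 2 libraries together. Over all kept cells Bcl2a1b was at 1.07 CPM in young and 3.45 CPM in old cells, and Pmaip1 was 1.11 and 2.55. Those 2 of 10 members passed the fold, where 14.2% of genes did. Neutrophil-like cells, where both genes were highest, made up 1.12% of young and 4.03% of old kept cells, and within them 0 of 6 members passed, where 34.1% of genes did. Cells of no class held 45 of the 87 young and 89 of the 230 old UMIs of Bcl2a1b, at 8.06 and 23.3 CPM, and Pmaip1 was 3.94 and 17.3 CPM in them. The part of either set of cells in the ratios over all kept cells was not tested. With classes weighted equally 0 members passed. With cells thinned to 2000 UMIs 3 did, Bcl2a1b at 9.17-fold, Pmaip1 at 4.85-fold and Mcl1 at 1.53-fold. Over the mesenchymal classes 1 of 9 passed, where 12.4% of genes did, Pmaip1 at 1.53-fold (0.88 to 2.70). Over all kept cells Bcl2 (35.3 and 35.4), Bcl2l1 (14.5 and 14.3) and Bax (103 and 92.6) stayed under the fold.

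Within classes, Bcl2 differed in opposite directions between the libraries. It was 0.425-fold (0.333 to 0.539) in old against young tendon-like cells, on 98 and 253 UMIs, and 0.676-fold (0.573 to 0.796) in osteoblast-like cells, whereas it was 1.23-fold (1.14 to 1.33) in stromal-like cells. Passing members were 2 of 8 in tendon-like cells (Bcl2 and Bcl2l2, 1.65-fold), where 14.8% of genes passed. They were 2 of 9 in fibroblast-like cells (11.7%), where Bcl2l11 was 17.0 and 25.6 CPM, a ratio of 1.505 (1.30 to 1.74), and Pmaip1 was 1.59-fold (0.643 to 3.98). In chondrocyte-like cells 2 of 6 passed (29.0%), Bbc3 at 3.32-fold (1.57 to 7.25) and Bcl2l11 at 2.74-fold (1.16 to 6.68), on 38 old cells. In pericyte-like cells 3 of 7 passed (38.4%), of which Mcl1 was 464 and 277 CPM, 0.597-fold (0.493 to 0.723), Bcl2l11 was 0.646-fold (0.334 to 1.29) and Bak1 was 3.58-fold (0.857 to 31.8), on 2 and 18 UMIs. In erythroid-like cells 1 of 7 passed (20.7%), Bcl2l2 at 2.78-fold (1.17 to 7.61). In B-lineage-like cells 1 of 5 passed (27.9%), Bcl2l11 at 1.77-fold (1.12 to 2.72). In stromal- and osteoblast-like cells 0 of 8 passed, where 12.2% and 14.8% of genes did. In megakaryocyte-like cells 0 of 5 passed (21.5%), and in progenitor-like cells 0 of 8 (10.6%). Most of these shares were near the background.

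**Figure D5:**
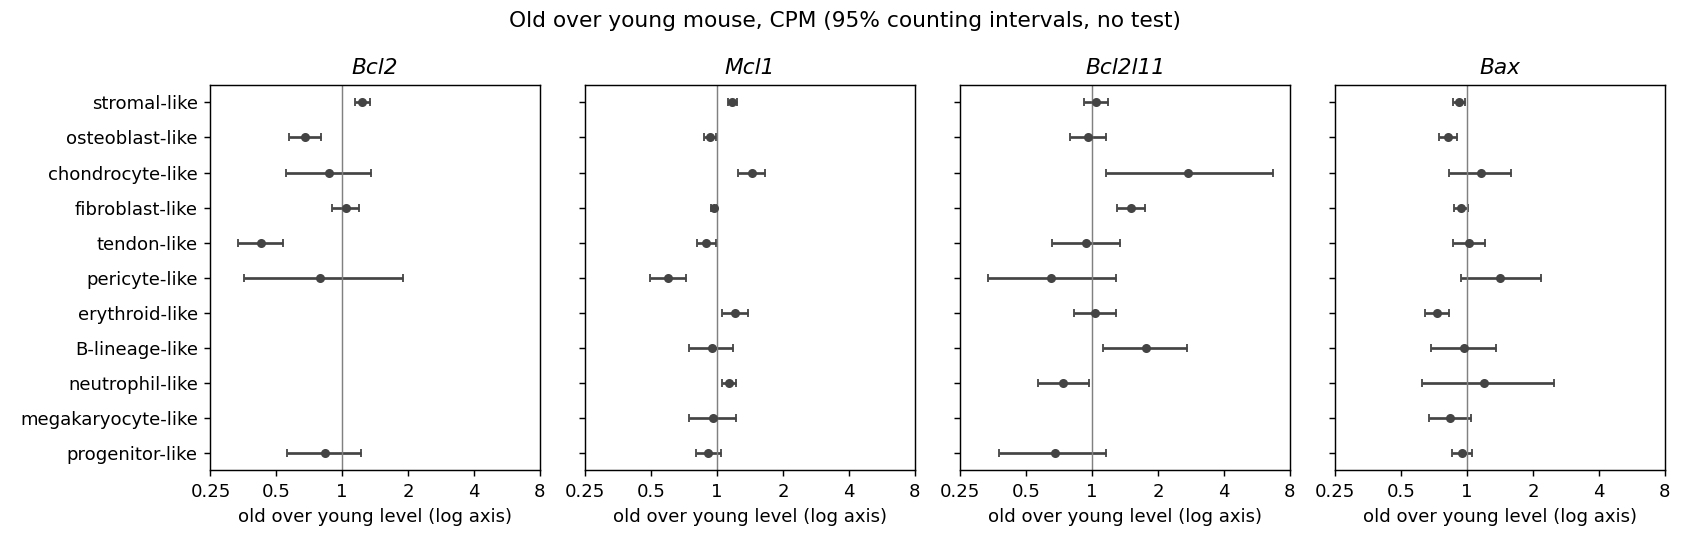
Ratio of the level in the old to that in the young mouse (log axis) for Bcl2, Mcl1, Bcl2l11 and Bax in each class with enough UMIs, with 95% counting intervals. Bcl2 lies below 1 in tendon- and osteoblast-like cells and above 1 in stromal-like cells, and Mcl1 lies below 1 in pericyte-like cells.

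The share of cells with a member UMI was higher in the old mouse, with intervals that did not overlap, in 32 of 110 pairs of member and class, and lower in 0. The old cells were deeper, and the same count over all genes was not made. The 32 pairs are therefore not a result about the members. Cells with at least 2000 UMIs, 9293 of 10063 young and 5111 of 5607 old, were then thinned to that number and shallower cells left out, after which 1 pair was higher and 1 lower. In tendon-like cells the share with a Bcl2 UMI was 34.8% (young) and 32.2% (old) before thinning, and 17.2% (13.7 to 21.3) and 7.43% (4.22 to 12.0) after it. In neutrophil-like cells the share with an Mcl1 UMI was 90.5% (82.1 to 95.8) and 98.6% (96.0 to 99.7) after thinning, over the 84 of 113 young and 218 of 226 old cells deep enough. In the other 108 pairs the intervals overlapped at equal depth, which is no test of whether the shares differ.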

How the data were processed

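Single-cell RNA and CD24 antibody libraries of 1 young and 1 old mouse were analysed. The deposited values are raw UMI counts, whole numbers per gene and cell, written by the authors with Cell Ranger 6.1.1 per the file headers and aligned to mm10 per the labels, with no normalization. Cells with under 200 genes or over 20% mitochondrial UMIs were left out. Classes required UMIs of at least 3 of 6 markers. CD24+ cells lay above the Otsu threshold of log(1 + antibody count), 319 in the young and 410 in the old library. Scrublet doublets (2.67% and 1.02%) were kept, and removed as an alternative. UMIs were summed per mouse and class or status and tested with edgeR 4.0.16 (R 4.3.3, quasi-likelihood F test, TMM, filterByExpr, two-sided, Benjamini-Hochberg over all genes, call at 0.05), with the mouse as block since both sums come from 1 animal. With 2 mice, the class fits share each gene's spread over all classes and borrow part of it from other genes. In the main fits by CD24, Cdkn2a and cycling status the spread is borrowed largely from other genes. Deviations from class means correlated positively between mice's classes in 48 of 55 pairs (median 0.064). The fit was also run on simulated counts in which all sums shared 1 profile and a fixed spread, and only well-counted genes were changed. That run cannot check the fit for classes of unlike profile or for members on few UMIs. Alternatives used DESeq2 1.42.0, other filters, thinning and other scaling. Genes named were all members, at most 6 other apoptosis genes per contrast by smallest adjusted p, and the 3 most similar genes per member. Some genes that meet these rules are not reported here. Members and lists were chosen with earlier results of these data known. All intervals are 95%. Those of levels, shares and ratios are exact and cover counting error only. Those of fitted differences come from the estimate and SE of the edgeR fit.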

Additional observations from a re-analysis of the deposited data

Results flagged for a closer look

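Bcl2 was flagged because its ratio of old to young lay above 1 in stromal-like cells (1.23) and below 1 in osteoblast-like (0.676) and tendon-like cells (0.425), with counting intervals that exclude 1. Mcl1 was flagged for the same reason, at 1.17 in stromal-like, 1.44 in chondrocyte-like, 1.21 in erythroid-like and 1.13 in neutrophil-like cells, against 0.925 in osteoblast-like, 0.965 in fibroblast-like, 0.893 in tendon-like and 0.597 in pericyte-like cells. Bcl2l11 was at 2.74 in chondrocyte-like, 1.505 in fibroblast-like and 1.77 in B-lineage-like cells, against 0.739 in neutrophil-like cells. With 1 mouse per age the differences between classes were not tested.

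Cells that met no class were used in no comparison between classes or states, only in the totals over all kept cells, and they held more Bcl2a1b and Pmaip1 than any mesenchymal class of the same mouse. Bcl2a1b was 8.06 CPM in young and 23.3 in old unassigned cells, and Pmaip1 was 3.94 and 17.3. What those cells are was not tested.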

How the results depend on the processing

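Across classes 53 of 110 pairs of member and class were called, 51 to 54 under every other alternative and 27 after cells were thinned to 2000 UMIs, which leaves fewer counts. Removing the replicate block, so that the mice were not paired, left 53, and 5 in mesenchymal against blood classes, where alternatives gave 4 to 7. It changed no other count of calls. By CD24 the count was 0 under all alternatives. By a Cdkn2a UMI it was 1 without the low-count filter and 1 without doublets, and among cycling cells 0 with DESeq2 and 0 after thinning. Between ages it was 2, 0 with classes weighted equally and 3 after thinning, and of the shares 2 had intervals that did not overlap after thinning. Of 57 named calls 27 kept direction and side of the threshold in every alternative, and the cause of the other changes was not tested. Leaving out a mouse leaves 1 mouse and no test. In each mouse alone 0 of the 57 calls turned in direction, while 13 of 31 named differences that were not called did so in 1 mouse. Bax in neutrophil-like cells, Bcl2 in fibroblast-like cells (DESeq2 adjusted p = 0.0514) and Bcl2a1b in neutrophil-like cells were lost with DESeq2. Without the low-count filter Bax in stromal-like (adjusted p = 0.0881) and Bcl2l1 in osteoblast-like cells (0.0522) and in mesenchymal against blood classes (0.0613) were lost in edgeR. With at least 4 markers Bcl2 in fibroblast-like (0.144) and megakaryocyte-like (0.129), Bcl2l2 in tendon-like (0.0585) and Bbc3 in chondrocyte-like cells (0.113) were lost. Thinning ended the call of Bcl2 in chondrocyte-like cells (0.0676) among others.

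Signs turned as follows, of which Bak1 in tendon-like cells alone had been called. After thinning, Bak1 in tendon-like cells was 0.0721. By CD24 over mesenchymal classes Bcl2l11 was 0.13, Bcl2l2 0.0791 and Bak1 0.15, within osteoblast-like cells Mcl1 was -0.0844, Bcl2l2 -0.0314 and Bak1 0.55, by a Cdkn2a UMI Bbc3 was -0.34 and Bcl2l2 0.011, and among cycling cells Bcl2l1 was -0.0097. Without the low-count filter Mcl1 by CD24 was -0.00052. With class as a term Bcl2l2 was 0.045 by CD24 and 0.015 by a Cdkn2a UMI. Without doublets Bak1 by CD24 in osteoblast-like cells was 0.0014, Bcl2l2 by a Cdkn2a UMI 0.0029 and Bcl2l1 in cycling cells -0.056, and with a mixture threshold Bak1 by CD24 was 0.19. Bcl2l2 by a Cdkn2a UMI was also 0.011 with RLE size factors, 0.034 with no replicate block and 0.0051 with a 10% mitochondrial limit. Without cells carrying cycling markers, chosen after seeing the data, Bcl2l11 was 0.15 and Bak1 -0.11 by a Cdkn2a UMI. With classes weighted equally the ratio of old to young for Bcl2l11 was 0.949. Cycling cells could not be fitted per class, since no class held 20 of them in both states and mice. Depth limits Pmaip1 and Bcl2a1b outside neutrophil-like cells.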
